A study of Mus musculus with 28 samples.

Results

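The AM miRNAs of co-ex males and co-ex females were compared after FA, the control exposure of the study, in which no O3 was given. The comparison used 8 of the 28 libraries of the series, 4 from males and 4 from females, and the 337 miRNAs that were listed in both co-ex tables, out of 368 in the table of the females and 412 in that of the males. The libraries were chosen by their labelled genotype, sex and exposure, and no measured value entered that choice. The question was whether the sexes already differ without O3, and whether miRNAs of red cells, of epithelial cells or of repeat-like sequence hold the difference. The co-ex mice are humanized transgenic mice that express both human surfactant protein A genes, SP-A1 and SP-A2 (6A2/1A0), on a C57BL/6J background that lacks mouse SP-A, so that both groups here carry the deletion and the transgenes. The mice were 12 weeks old, the females were synchronized for the estrous cycle, and AM were isolated 4 h after 3 h in FA. For comparison, co-ex mice exposed to O3 (4 libraries of each sex) and KO mice, which lack SP-A and carry no transgene, after FA (3 libraries of each sex) were used. In each genotype each sex has its own table, and in co-ex also its own series of library numbers. Sex, table and any shared preparation of a table therefore cannot be told apart. The library numbers of KO males and females interleave, and all of them lie apart from the co-ex numbers. Genotype thus cannot be told apart from table and preparation either. The labels do not say that each library came from 1 mouse, and p-values here measure the spread between libraries.

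miRNAs are short RNAs that guide a silencing complex to messenger RNAs, mostly by pairing through the seed near their 5′ end, and miRNAs with one seed are grouped as a family. Several are known for a cell type: miR-223 and miR-142a for myeloid cells such as macrophages, miR-451a, miR-144 and miR-486 for red cells, and the miR-200 and miR-34/449 families and miR-375 for epithelial cells, which line the airways from which AM are washed. Some registered mouse miRNAs overlap short interspersed repeats, so their sequences occur in many unrelated transcripts.

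The 8 libraries held between 93520 and 891030 reads on listed miRNAs, with medians of 149549 in females and 336558 in males. For a miRNA with 0 reads the limit was taken as 3 reads, or 3.37 to 32.1 counts per 1e+06 reads (CPM), and it covers counting error only. Replicates differed from each other by at least 22.4 times the variance expected from counting, so no library was a copy of another. The listed myeloid miRNAs took 10.1 to 18.3% of the reads in females and 13.7 to 17.8% in males. Of these, miR-21a-5p had 61746 to 92449 CPM in females and 24603 to 86786 in males. miR-223-3p had 1754 to 8959 and 7960 to 15431. The share was not set against that in other cell types, so it does not decide the cell label. No miRNA is particular to AM among myeloid cells either. Female replicate 2 and male replicate 4 stood apart from the other libraries of their sex, as given below, and results that rest on them are given without them. Values are CPM after a joint TMM scaling of the 8 libraries, and fold changes are males over females.

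The mature sequences of the miRNAs on which the results turn are given first, from RefSeq (GRCm38.p6, 292 of the 337 miRNAs matched), 5′ to 3′, with the seed (bases 2 to 8) in capitals. The first set is rich in G and C, with a GC content of 94.7% in miR-6538, 85.7% in miR-2137 and 100% in miR-5126.
miR-6538: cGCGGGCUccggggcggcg
miR-2137: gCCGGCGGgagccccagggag
miR-5126: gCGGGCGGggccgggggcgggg
The second set shares a stretch of at least 18 bases, or its reverse complement, with the transcripts of other genes in GENCODE vM21. The counts were 1484 genes for miR-3470b, 1245 for miR-1195, 860 for miR-706, 831 for miR-3473e and 14 for miR-690, out of 53248 genes searched. Both orientations were counted together, here and below, so a gene counted may hold only the reverse complement.
miR-3473e: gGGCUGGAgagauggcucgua
miR-1195: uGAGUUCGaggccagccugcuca
miR-706: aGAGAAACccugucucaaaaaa
miR-3470b: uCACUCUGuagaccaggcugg
miR-690: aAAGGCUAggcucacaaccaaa
The third set shows miR-1961 beside the let-7 family, whose seed it has: its 17 bases are identical to let-7b-5p and to let-7a-5p over the first 11.
miR-1961: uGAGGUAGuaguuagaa
let-7b-5p: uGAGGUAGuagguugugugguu
let-7a-5p: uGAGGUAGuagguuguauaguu
The fourth set gives miRNAs of one seed with unlike differences between the sexes, and the paired miRNAs of the miR-34 cluster.
miR-92b-3p: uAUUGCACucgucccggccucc
miR-92a-3p: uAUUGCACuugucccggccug
miR-25-3p: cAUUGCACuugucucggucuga
miR-429-3p: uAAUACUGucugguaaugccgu
miR-200b-3p: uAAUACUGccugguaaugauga
miR-34b-3p: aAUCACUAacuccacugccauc
miR-34c-3p: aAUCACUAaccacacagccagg
The last set holds miR-224-5p and the miRNAs that were higher in males and had a sequence.
miR-224-5p: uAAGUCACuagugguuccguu
miR-342-3p: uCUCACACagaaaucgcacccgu
miR-223-3p: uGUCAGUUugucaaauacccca
miR-103-3p: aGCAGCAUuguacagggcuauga

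After FA, 33 of the 238 miRNAs with enough reads to be tested (13.9%) differed between co-ex males and females at an adjusted p under 0.1 in edgeR's quasi-likelihood test, 29 lower in males (12.2%) and 4 higher (1.68%). The remaining 99 of the 337 listed miRNAs did not pass the filter on low counts. The median log2 fold change over all 238 was 0.09, and it lay at 0.12 and 0.10 under median-of-ratios and total-count scaling. The male and female libraries did not overlap for 40 of the 238 (16.8%), among them 22 of the 29 called lower and 2 of the 4 called higher. DESeq2 called 55 (23.1%), 18 higher and 37 lower, which include 32 of the 33, and limma on log2(CPM + 1) called 32 (13.4%), which include 30 of the 33.

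The 29 miRNAs lower in males took 36.4% of the reads in female replicate 1, 8.31% in replicate 2, 35.1% in replicate 3 and 33.6% in replicate 4. In males they took 1.28%, 1.56%, 3.10% and 5.34%. Every female library was thus above every male library, and female replicate 2 lay closer to the males than to the other females. It was the lowest female library for 25 of the 29, and female replicate 1 was the highest for 20. Male replicates 3 and 4 were the highest male libraries for 17 and 10. Female replicate 2 was also the deepest female library, with 488993 reads against 93520 to 182207 in the others. Male replicates 1 and 2 had 491311 and 891030 reads, and replicates 3 and 4 had 126398 and 181805. In each sex the deeper libraries thus had the lower shares, and the part of depth in this was not tested.

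**Figure D1:**
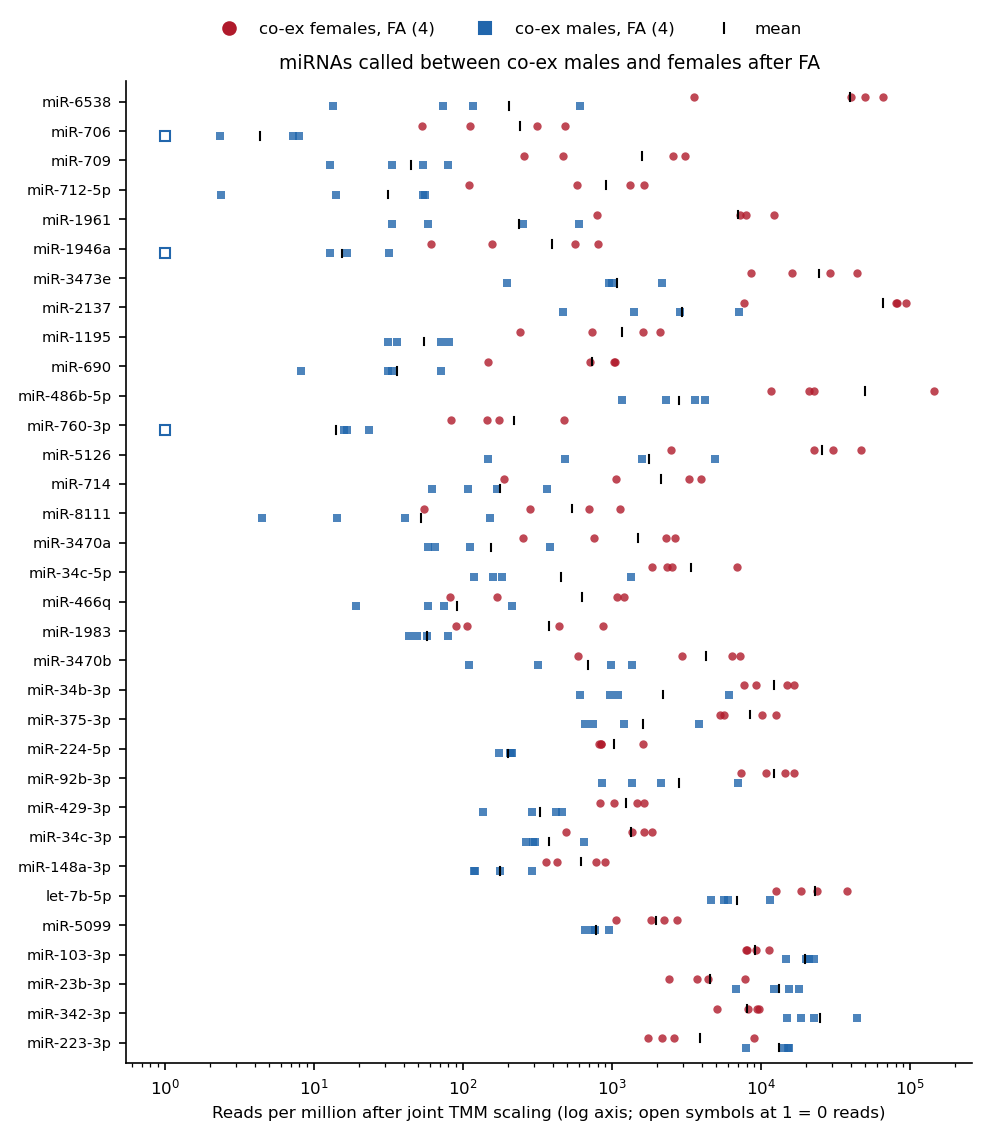
CPM of the 33 called miRNAs in each of the 4 female (circles) and 4 male (squares) co-ex libraries after FA on a log axis, ordered by fold change from the lowest in males, with the mean of each group as a short line. For miR-6538 the female libraries lie between 3561 and 65667 and the male libraries between 13.4 and 613, and the female library nearest the males is replicate 2 for most miRNAs.

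The GC-rich miR-6538, miR-2137 and miR-5126 were all lower in males. They were listed because they take more of the reads after O3 in KO libraries, 1.45 to 1.74% in KO females after O3 against 0.07 to 0.86% after FA. The mature sequence of miR-6538 lies at chr12:26414970-26414988 (GRCm38, minus strand) in an intron of Rnf144a, and positions below are also those of mature sequences. Its CPM was 65667, 3561, 39961 and 50009 in the 4 females and 118, 73.4, 613 and 13.4 in the 4 males. No male library reached any female library, and the log2 fold change was -7.65 (standard error 1.28, adjusted p = 0.00688 from edgeR), with the largest size of the 238. For miR-2137 (chrX:72992113-72992133, plus strand, intron of Zfp185) the females had 94440, 7729, 80529 and 81724 CPM and the males 1415, 472, 7110 and 2841. The groups did not overlap, but female replicate 2 exceeded the highest male only slightly, and the log2 fold change was -4.48 (standard error 0.94, adjusted p = 0.0115 from edgeR). DESeq2 did not call miR-2137, the only one of the 33 it left out. For miR-5126 (chr1:84695890-84695911, intergenic) the groups overlapped, with 2503 to 46855 CPM in females and 147 to 4889 in males (log2 fold change -3.85, adjusted p = 0.0457 from edgeR). Together the trio took 18.7%, 1.49%, 13.6% and 16.9% of the reads in the females and 0.17%, 0.07%, 1.26% and 0.55% in the males.

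Of the 9 tested repeat-like miRNAs, 6 were called (66.7%), all lower in males, beside 12.2% called lower of all miRNAs, and their median log2 fold change was -3.30 beside 0.09 over all miRNAs. The list was drawn up with results of these data known. miR-3473e (chr5:31667296-31667316, minus strand, intron of Rbks) had 43911, 8589, 16108 and 28910 CPM in the females and 955, 198, 2182 and 996 in the males. The groups lay apart, with a log2 fold change of -4.50 (adjusted p = 0.00688 by edgeR, standard error 0.77). miR-1195 (chr17:70860558-70860580, minus strand, intergenic) had 1624, 243, 731 and 2103 CPM in the females against 36, 31.4, 71.7 and 80.4 in the males. Its log2 fold change was -4.45 (standard error 0.77, adjusted p = 0.00688 from edgeR). miR-709 had 2583, 258, 472 and 3073 CPM in the females against 33.6, 12.8, 79.6 and 53.6 in the males (log2 fold change -5.22, standard error 0.96, adjusted p = 0.00926 from edgeR). miR-690 (chr16:28599940-28599961, minus strand, intron of Fgf12) had 1026, 146, 708 and 1049 against 33.6, 8.15, 71.7 and 31.3 CPM (log2 fold change -4.42, standard error 0.85, adjusted p = 0.0104 from edgeR). In each of these 4 miRNAs female replicate 2 was the lowest female and still above all males.

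miR-3470a and miR-3470b overlapped between the groups, with log2 fold changes of -3.30 and -2.64 (adjusted p = 0.0397 and 0.0801 from edgeR). The relatives miR-3473b and miR-3473d had log2 fold changes of 0.27 and 0.09 and miR-3473f -1.90, none of them called, although miR-3473b has the seed of miR-3473e. The sequences of miR-3473b and miR-3473e differ only in their last bases, so reads may be split between them in counting. miR-3473b was also rare, with 0 to 171 CPM in females and 33.6 to 247 in males. miR-706 is not on that list but shares 18 bases with many genes (chr6:120034290-120034311, minus strand, intron of Wnk1). It had 484, 53.2, 112 and 316 CPM in the females against 7.20, 2.33, 7.96 and 0 in the males (log2 fold change -5.77, standard error 1.13, adjusted p = 0.0110 from edgeR). The male values of miR-706 lie near the limit that 0 reads allow. Among the 202 tested miRNAs with a sequence, 10 (4.95%) share 18 bases with at least 10 genes, and among the 20 called lower with a sequence 5 did (25.0%). Across those 202 miRNAs the log2 fold change had a Pearson's r of -0.25 with GC content (Spearman's rho -0.08) and of 0.26 with length (rho 0.24). These correlations are across miRNAs of the same libraries, which are not independent, and they are given as a description.

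miR-1961 (chr5:92788465-92788481, minus strand, intergenic), with the let-7 seed, had 12269, 798, 7172 and 7875 CPM in the females and 33.6, 58.2, 605 and 255 in the males. The lowest female was just above the highest male, and the log2 fold change was -4.92 (standard error 1.05, adjusted p = 0.0115 from edgeR). let-7 miRNAs restrain proliferation in many cell types and are among the most abundant here. Of 11 tested members of let-7 and miR-98, 1 was called (9.09%, beside 13.9% of all miRNAs), let-7b-5p (chr15:85707325-85707346, plus strand, an exon of Lncppara), with a median of 0.15 over the list. let-7b-5p had 37453, 12518, 18412 and 23692 CPM in the females and 5605, 6039, 4626 and 11515 in the males, without overlap (log2 fold change -1.73, standard error 0.47, adjusted p = 0.0457 from edgeR). Its close relatives let-7a-5p and let-7f-5p had log2 fold changes of 0.52 and 0.46, let-7c-5p -0.77 and let-7e-5p 1.05, none of them called. let-7g-5p and let-7i-5p, identical to miR-1961 over a longer stretch than let-7b-5p is, had -0.29 and -0.22 and were not called. Without female replicate 2 the calls in the family were 3, 2 higher and 1 lower in males, beside 68 over all miRNAs, 27 higher and 41 lower. Without females 1 or 4 or males 1 or 2 they were 0, beside 11 to 17 over all miRNAs. As a share of the 5p reads of let-7 and miR-98, which does not depend on the scaling of the libraries, let-7b-5p made up 20.3%, 5.48%, 13.5% and 16.7% in the females and 1.93%, 2.73%, 3.94% and 7.79% in the males. On this measure female replicate 2 fell within the range of the males. The share of let-7d-5p was 6.82 to 9.09% in females and 11.0 to 13.5% in males, and that of let-7i-5p 3.80 to 4.78% and 3.00 to 3.59%, both without overlap. Reads of such near-identical members may be split between them in counting.

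Of the red-cell miRNAs, miR-486b-5p had enough reads to be tested. It had 22753, 11718, 143657 and 21057 CPM in the females and 1163, 4238, 2317 and 3622 in the males. All females were above all males, female replicate 3 far above the rest, and the log2 fold change was -4.13 (standard error 0.84, adjusted p = 0.0114 from edgeR). Without female replicate 3 it was -2.67 and still called. miR-486 has a near-identical copy in the mouse genome, so reads cannot be assigned to one gene with certainty. miR-451a, the most particular miRNA of red cells, had 8, 21, 34 and 8 reads in the females and 3, 10, 2 and 0 in the males, and miR-144-5p, of the same cluster, 2, 48, 8 and 10 against 0, 13, 4 and 0. Neither passed the filter, and both were far below miR-486b-5p in every library. In bulk RNA, fewer cells of a type and less RNA per cell cannot be told apart.

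Of the 14 tested epithelial miRNAs, 5 were called (35.7%), all lower in males, beside 12.2% called lower of all miRNAs. A log2 fold change below 0 was found in 11 of the 14, beside 115 of all 238, and the median was -0.82. This median was -0.81 and -0.73 under median-of-ratios and total-count scaling. miR-375-3p, known from secretory cells, had 12678, 5277, 5643 and 10178 CPM in the females and 664, 749, 1210 and 3814 in the males (log2 fold change -2.39, standard error 0.63, adjusted p = 0.0397 from edgeR). The genes of miR-34b and miR-34c, known from ciliated cells, lie beside each other on the minus strand of chromosome 9 (chr9:51103574-51103595 for miR-34b-3p and chr9:51103044-51103065 for miR-34c-3p). miR-34b-3p had 15023, 7653, 9274 and 16645 CPM in the females and 1106, 614, 963 and 6110 in the males. Its groups lay apart, with male replicate 4 nearest to the females (log2 fold change -2.47, standard error 0.72, adjusted p = 0.0532 from edgeR). miR-34c-5p had a log2 fold change of -2.91 and miR-34c-3p of -1.82 (adjusted p = 0.0532 and 0.0641 from edgeR). The 3p arm was 42.5%, 41.1%, 21% and 16.7% of the miR-34c reads in the females and 62.7%, 61.7%, 71.7% and 32.7% in the males, and the groups overlapped through male replicate 4. miR-449a-5p, of the same family, had a log2 fold change of -2.0 (adjusted p = 0.146 by edgeR) and was not called.

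Members of the miR-200 family, which hold cells in an epithelial state, differed among themselves. miR-429-3p (chr4:156053916-156053937, minus strand, an exon of Gm13648) had 832 to 1639 CPM in females and 135 to 465 in males (log2 fold change -1.92, standard error 0.53, adjusted p = 0.0457 from edgeR). miR-200b-3p and miR-200c-3p, of the same seed, had log2 fold changes of -0.20 (standard error 0.65) and -0.30 (standard error 0.58) and overlapped widely. miR-205-5p and miR-203-3p, of squamous and basal epithelium, had 0.64 and 0.43, and miR-182-5p -0.32. The list as a whole took 4.17%, 3.60%, 2.32% and 5.35% of the reads in the females and 0.65%, 1.45%, 0.67% and 3.98% in the males, so that male replicate 4 fell among the females. All 5 calls were lost when female replicate 1 or 4 was left out, and likewise for males 1 and 2, there were 3 without male 3, and there were 6 without female replicate 2 or without male replicate 4. Over all miRNAs, 11 to 16 were called lower without females 1 or 4 or males 1 or 2. That count was 30 without male 3, 41 without female replicate 2 and 32 without male replicate 4. Total-count scaling left 2 of the 5.

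**Figure D2:**
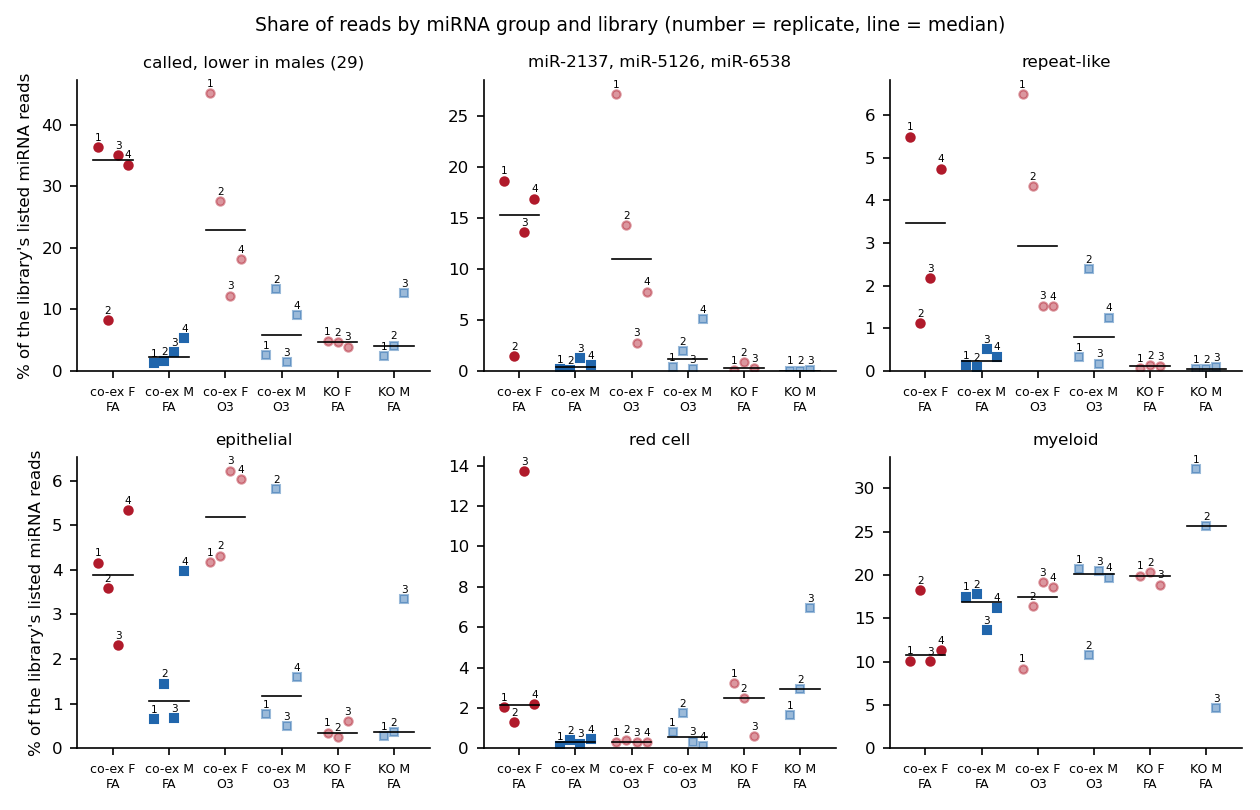
Share of each library's reads on listed miRNAs (percent) taken by the 29 miRNAs called lower in males and by 5 of the lists, in co-ex libraries after FA (solid) and, paler, in co-ex libraries after O3 and KO libraries after FA, with the replicate number at each point and the group median as a line. The 29 miRNAs took 33.6 to 36.4% in 3 of the co-ex females after FA, 8.31% in replicate 2 and at most 5.34% in the males.

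Among the other miRNAs called lower in males, miR-224-5p (chrX:72261085-72261105, minus strand, intron of Gabre) was lower in all males. Its CPM was 1624, 818, 843 and 849 in the females and 211, 176, 215 and 205 in the males. Female replicate 1 stood above the other females, and the groups lay apart without it as well (log2 fold change -2.35, standard error 0.48, adjusted p = 0.0114 from edgeR). miR-712-5p had 1652, 110, 585 and 1312 CPM in the females and 2.40, 14.0, 55.7 and 53.6 in the males (log2 fold change -4.97, standard error 1.06, adjusted p = 0.0115 from edgeR). miR-1946a had 807, 60.8, 157 and 569 against 16.8, 12.8, 31.8 and 0 CPM (log2 fold change -4.75, standard error 1.08, adjusted p = 0.0176 from edgeR).

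For miR-92b-3p (chr3:89227126-89227147, minus strand, intergenic), a relative of the miR-17 clusters, the females had 7343 to 16628 CPM and the males 851 to 7004 (log2 fold change -2.12, standard error 0.64, adjusted p = 0.0633 from edgeR). The other members of its seed had log2 fold changes of -0.06 (miR-92a-3p) and 0.19 (miR-25-3p), and miR-92b-3p was the only one of 10 tested members of these clusters to be called. It was called without female replicate 2 or male replicate 4 and not when any other single library was left out. miR-148a-3p (chr6:51269829-51269850, minus strand, intergenic) had 359 to 902 CPM in females and 119 to 290 in males (log2 fold change -1.80, adjusted p = 0.0676 from edgeR), while miR-148b-3p and miR-152-3p, which share its seed, had -0.09 and -0.43. The remaining 6, miR-714, miR-760-3p, miR-1983, miR-8111, miR-5099 and miR-466q, had log2 fold changes from -3.86 to -1.33.

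The 4 miRNAs higher in males were miR-342-3p, miR-23b-3p, miR-223-3p and miR-103-3p. miR-342-3p (chr12:108658680-108658702, plus strand, intron of Evl), known from myeloid and lymphoid cells, had 8148, 9444, 9656 and 5039 CPM in the females and 22746, 18444, 44062 and 14852 in the males. The groups did not overlap, and the log2 fold change was 1.63 (standard error 0.46, adjusted p = 0.0457 from edgeR). miR-223-3p (chrX:96242884-96242905, plus strand, an exon of F630028O10Rik), the leading miRNA of granulocytes and monocytes, had 2611, 8959, 1754 and 2177 CPM in the females and 15167, 14246, 15431 and 7960 in the males. Female replicate 2 was above male replicate 4, and the log2 fold change was 1.77 (standard error 0.56, adjusted p = 0.0718 from edgeR). miR-23b-3p had 3704, 7771, 4384 and 2430 CPM in the females and 15434, 18095, 12254 and 6785 in the males, with the same pair of libraries overlapping (log2 fold change 1.52, standard error 0.48, adjusted p = 0.0713 from edgeR). miR-103-3p, encoded at 2 loci, in introns of Pank2 (chr2:131288103-131288125) and Pank3 (chr11:35782447-35782469), had 7901, 11371, 9285 and 8091 CPM in the females and 22756, 21081, 20104 and 14753 in the males (log2 fold change 1.1, standard error 0.36, adjusted p = 0.0816 from edgeR). Its near twin miR-107-3p differs at 1 of 23 positions and had 1.15 (adjusted p = 0.185 from edgeR). Male replicate 4 was the lowest male library for all 4, and none of the 4 was called without females 1 or 4 or male 1.

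Beyond miR-223-3p and miR-342-3p, the other 8 of the 10 tested myeloid miRNAs were not called, and the list had a median of 0.85. The 2 calls are 20% of it, beside 13.9% of all miRNAs. miR-146b-5p, an inflammation-induced miRNA, had 22516, 49054, 29957 and 25073 CPM in the females and 76163, 66813, 48784 and 34496 in the males, with 0.84 on the log2 scale (standard error 0.43). miR-21a-5p had 76673, 92449, 61746 and 74255 against 86786, 78580, 24603 and 69277 CPM (log2 fold change -0.24, standard error 0.44). Without female replicate 2, which had the largest myeloid share of the females, 5 of the 10 were called higher in males, 1 without female 3 or male 2 or 3, and 0 without females 1 or 4 or male 1. Over all miRNAs, 27 were called higher without female replicate 2. Without female 3, male 2 and male 3 that count was 1, 1 and 4, and it was 0 without females 1 or 4 or male 1.

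The 10 miRNAs with the highest mean CPM were miR-125a-5p, miR-21a-5p, miR-99b-5p, let-7a-5p, miR-23a-3p, miR-146b-5p, let-7f-5p, miR-2137, miR-30d-5p and miR-486b-5p. Only miR-2137 and miR-486b-5p among them were called. miR-99b-5p, of a family with miR-100, had 25732 to 38351 CPM in females and 50643 to 122457 in males, without overlap, but its adjusted p was 0.112 in edgeR (log2 fold change 1.15). No miRNA was called in the families of miR-15 and miR-16 (6 tested), miR-29 (4), miR-30 (8), miR-181 (3), miR-125 (7), miR-101 (2), miR-191 (3) or miR-26 (2). Their medians lay between -1.08 for miR-101 and 1.39 for miR-181. With 13.9% of all miRNAs called, families this small may hold no call without being set apart. Without female replicate 2, all 3 tested members of miR-181 were called higher in males, as was 1 each of the miR-30, miR-125, miR-191 and miR-26 families. In that fit 27 of all miRNAs were called higher, against 4 as reported. Without male replicate 4 the calls were 2 for miR-181 and 1 each for miR-125 and miR-191, beside 42 over all miRNAs. Without male replicate 3 there was 1 for miR-191, beside 34 over all miRNAs. None of the 5 tested miRNAs of muscle, mesenchyme and vessels was called (median 0.11), beside 13.9% of all miRNAs, although 1 was without female replicate 2 or male replicate 2. miR-150-5p of lymphocytes was not called either (log2 fold change -1.26, standard error 1.00), and it had 5009 CPM in female replicate 2 and 132 to 408 in the other females. Of the 28 tested miRNAs on the X chromosome 3 were called (10.7%), miR-223-3p higher and miR-224-5p and miR-2137 lower in males, beside 13.9% of all miRNAs. This count was 8 without female replicate 2, 6 of them higher in males, beside 68 calls over all miRNAs, 27 of them higher. It was 5 without male replicate 4, beside 42 over all miRNAs. Without any other single library it was 2, beside 11 to 34 over all miRNAs.

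**Figure D3:**
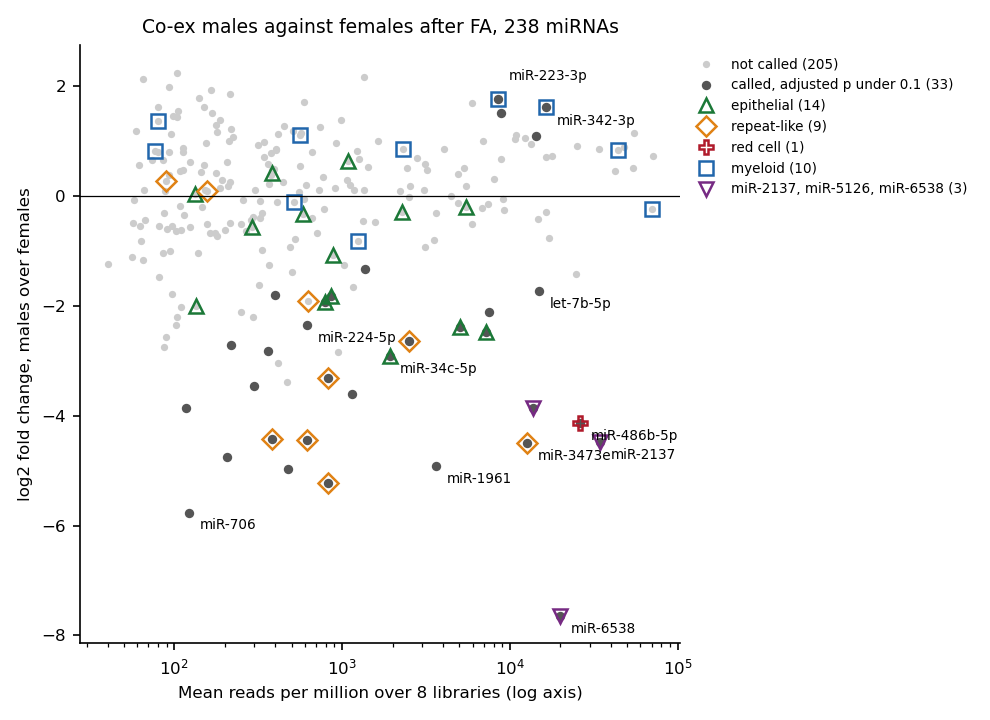
Log2 fold change of males over females against the mean CPM of the 8 co-ex libraries after FA (log axis) for the 238 tested miRNAs, with the 33 called ones dark and list members outlined. The repeat-like miRNAs and the GC-rich trio reach -2.64 to -7.65 where called, and the called epithelial miRNAs lie between -1.82 and -2.91.

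The red-cell, epithelial and repeat-like lists together held 24 tested miRNAs, of which 12 were called (50.0%), all lower in males. Of the 214 tested miRNAs on none of the 3 lists, 21 were called (9.81%), 17 lower and 4 higher. When the 3 lists were removed before scaling and testing, 13 of 214 were called (6.07%), all of them among the 21, with 12 lower and 1 higher. By reads, list members held 28.6%, 51.5%, 49.7% and 31.6% of what the 29 lower miRNAs took in the females, and the rest fell on the 17 outside the lists. miR-6538 and miR-2137 held 39.7%, 14.6%, 32.7% and 40.9% of it. With all miRNAs removed that share 18 bases with at least 10 genes, a setting chosen after the data were seen, 28 were called, 24 lower and 4 higher.

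Each library in turn was left out. The count of called miRNAs was 11 without female replicate 1, 68 without replicate 2, 26 without replicate 3 and 13 without replicate 4, and it was 13, 17, 34 and 42 without male replicates 1 to 4. Without female replicate 2 the calls were 27 higher and 41 lower in males, and without male replicate 4 they were 10 and 32. The 11 miRNAs called in every one of these 8 fits were miR-6538, miR-3473e, miR-1195, miR-709, miR-690, miR-706, miR-486b-5p, miR-224-5p, miR-2137, miR-712-5p and miR-1961. They are 11 of the 238 tested. Of these, 4 are among the 9 tested repeat-like miRNAs and 1 is the only tested red-cell miRNA. None is among the 14 tested epithelial miRNAs, a list too short for this to stand out from 11 of 238. The direction of all 33 remained the same in each fit.

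**Figure D4:**
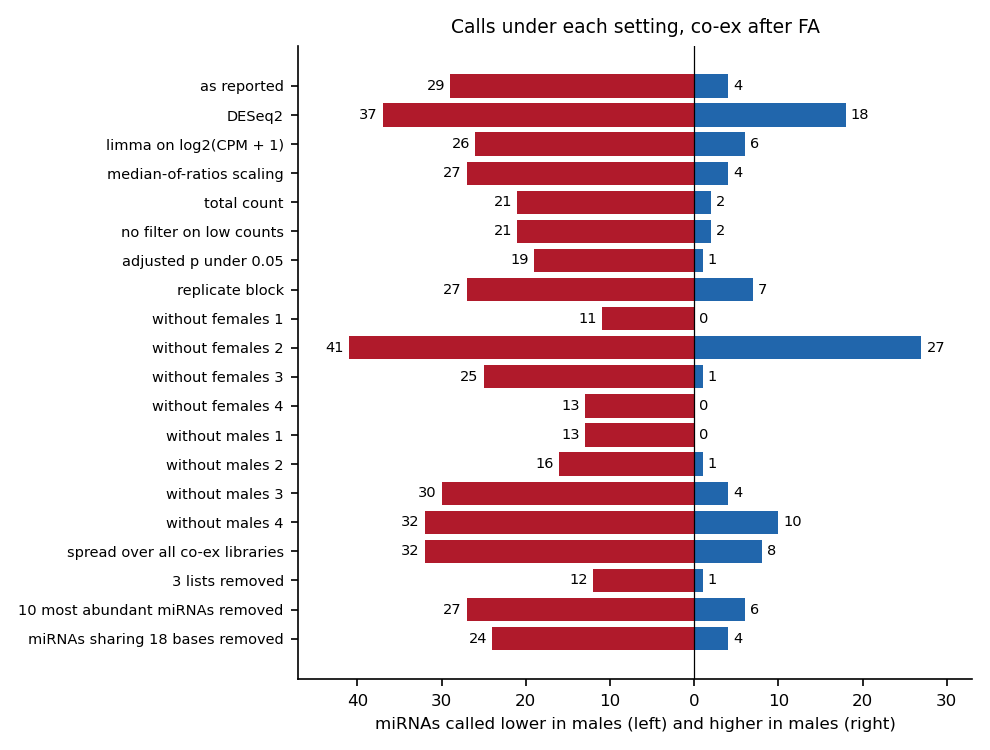
Number of miRNAs called lower (left) and higher (right) in co-ex males after FA as reported and under each alternative, counted in miRNAs from 0. The bar without female replicate 2 is the longest on both sides (41 and 27), and without female replicate 1 the count is 11 and 0.

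The O3 libraries of the same tables, none of which entered the FA comparison, were used to see whether the called miRNAs differed there too. In a fit of all 16 co-ex libraries, 31 of the 33 had the same sign after O3, all but miR-486b-5p and miR-34c-3p, against 213 of all 291 tested. The median log2 fold change of the 29 lower miRNAs was -3.31 after FA and -1.86 after O3. The difference between the exposures was called for 1 of 291 miRNAs (0.344%), miR-486b-5p. Its males were below its females by -3.96 on the log2 scale after FA and above them by 1.16 after O3, a difference of -5.12 (adjusted p = 0.0390 by edgeR, standard error 1.08). After O3 its scaled values in that fit were 3105, 4073, 3104 and 2909 CPM in females and 8788, 16240, 3513 and 1036 in males, and female replicate 3 after FA held 122616. For miR-451a the difference was -5.41 (standard error 1.84) and was not called (adjusted p = 0.977 in edgeR). Without FA female replicate 3, O3 female replicate 1, FA male replicate 1 or FA male replicate 3 the difference of miR-486b-5p was no longer called, with a smallest adjusted p of 0.116, 0.118, 0.102 and 0.110 in edgeR. For the other 32 miRNAs the adjusted p of the difference lay between 0.977 and 0.985, which does not show that they differed alike after both exposures. After O3 alone 19 of 244 miRNAs were called (7.79%), 15 higher and 4 lower in males, and 5 of the 33 were among them: miR-223-3p, miR-23b-3p, miR-342-3p, miR-5126 and miR-92b-3p. This count was 0 without O3 female replicate 2 or 4 or O3 male replicate 1 or 3, with 39 to 58 at an unadjusted p under 0.05 in edgeR, 1 without O3 female replicate 1 and 71 without O3 male replicate 2.

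In KO mice after FA, 0 of 301 miRNAs were called between males and females by edgeR, with 23 at an unadjusted p under 0.05, 0 by limma and 13 by DESeq2. With 3 libraries of each sex here, against 4 in co-ex, 0 calls do not show that the sexes were alike. The 29 miRNAs lower in co-ex males took 3.98 to 4.88% of the reads in KO females and 2.43 to 12.6% in KO males. In a fit of both genotypes after FA, 11 of the 33 had in KO the sign they had in co-ex and 22 the opposite one, and over all 300 tested miRNAs 148 had the same sign. The median log2 fold change over all miRNAs was 0.44 in KO in this fit and -0.01 in co-ex, and the signs include that shift. The difference in the sex effect between co-ex and KO was called for 17 of 300 miRNAs (5.67%), 11 of them among the 33. These were miR-712-5p, miR-690, miR-706, miR-6538, miR-486b-5p, miR-429-3p, miR-34c-3p, miR-375-3p, miR-148a-3p, miR-3473e and miR-1961. For miR-6538 the KO libraries had 141, 493 and 91.9 CPM in females and 114, 81.1 and 274 in males, so that all 6 lay in the range of the co-ex males and far below the co-ex females (difference -6.98, standard error 1.56, adjusted p = 0.0292 from edgeR). For miR-1961 the KO libraries had 25.1 to 151 CPM in females and 23.4 to 204 in males (difference -4.89, standard error 1.52, adjusted p = 0.0945 from edgeR). For miR-690, with 33.5 to 45.4 CPM in KO females and 62.1 to 370 in KO males, the co-ex females had 909.5, 135, 477 and 945 CPM, and replicate 2 lay below KO male replicate 3. miR-375-3p, in contrast, had 147 to 812 CPM in KO females, 401 and 554 in a pair of KO males and 9037 in KO male replicate 3. That library also had 4.64% of its reads on the myeloid list, against 25.7% and 32.2% in the other KO males, and 3.34% on the epithelial list, against 0.28% and 0.36%. Without it the difference between the genotypes was called for 6 miRNAs in place of 17. The count was also 6 to 10 without co-ex female 1 or 3, co-ex male 1, or KO female 1 or 2, and it was 29 without co-ex female 2, 30 without KO male 1 and 41 without KO male 2. The part of these shares in the results was not tested.

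**Figure D5:**
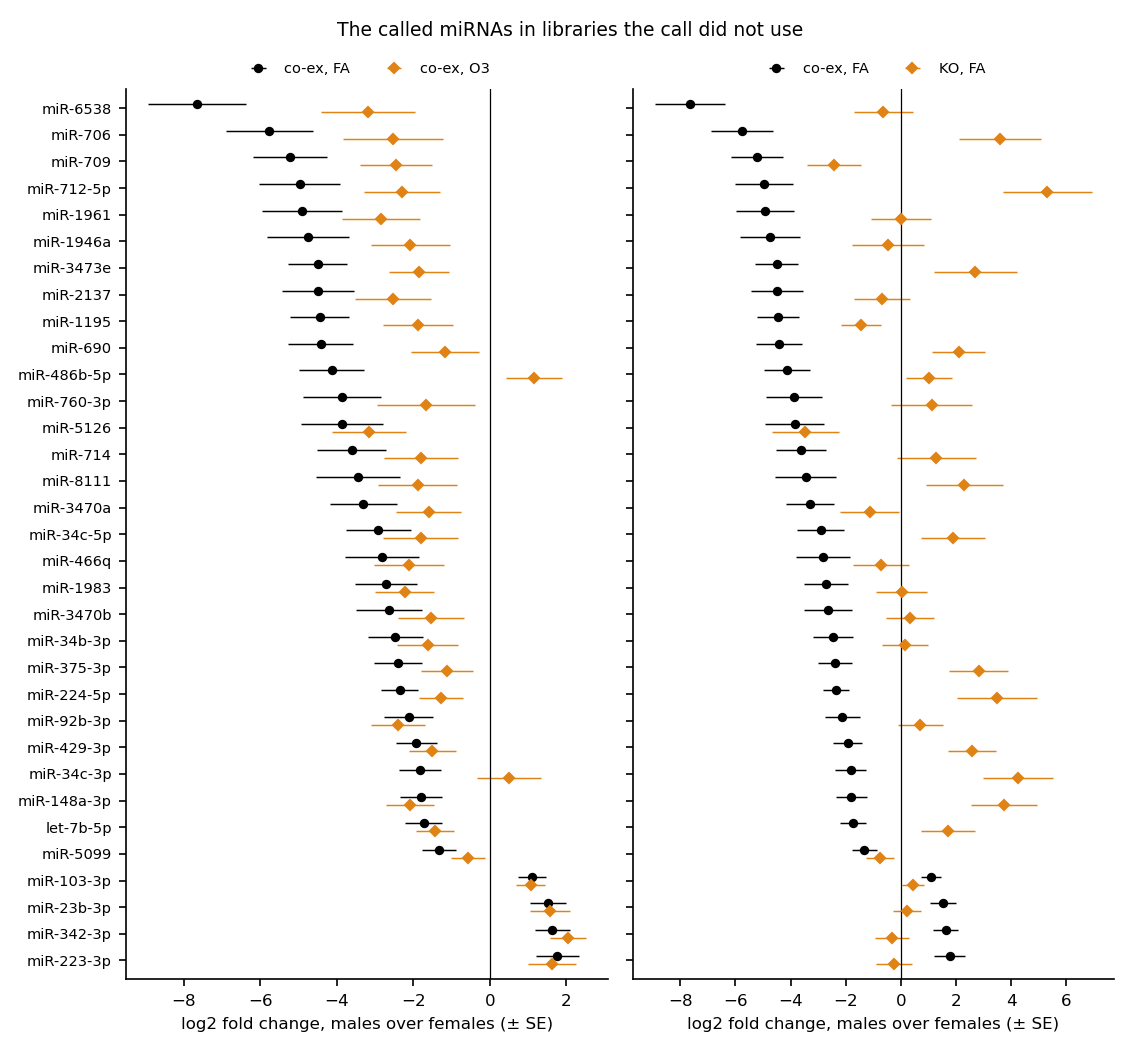
Log2 fold change of males over females, with its standard error, for the 33 called miRNAs in co-ex mice after FA (black, from the fit of the 8 libraries) beside co-ex mice after O3 (left, orange) and KO mice after FA (right, orange), each from the joint fit with the FA libraries. The O3 values lie on the same side of 0 for 31 of 33 and the KO values for 11.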

How the data were processed

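Small RNA libraries of AM were sequenced, 8 co-ex libraries after FA being compared here. Per the paper, the authors filtered reads with CASAVA and the FASTX-Toolkit, clipped adapters, used Chimira for alignment and for the counts of each miRNA, and tested differences in edgeR and TCC. The genome build and miRNA release are not given in the sources used here. The deposited columns hold a signal, the reads of each miRNA divided by a size factor of the library, with each table normalized on its own. The tables also hold the authors' fold changes, p-values and ranks, which were not used.

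Each value was divided by the smallest nonzero value of its column. In all libraries 100% of the quotients were whole within 0.01, so reads were recovered, and the 2 tables were joined over the 337 miRNAs listed in both, which hold all but 0.0194 to 0.215% of the reads. Every miRNA listed in a co-ex table has a read in at least 4 of its libraries. Recovered reads were tested with edgeR 4.0.16 (R 4.3.3): TMM scaling over the libraries compared, filterByExpr, the quasi-likelihood test, Benjamini-Hochberg adjustment and a threshold of 0.1, as in the study. Differences between exposures or genotypes were tested as the difference of the changes in 1 fit. CPM in a joint fit are scaled over its own libraries and differ slightly from those of the FA comparison. Alternatives were DESeq2 1.42.0, limma 3.58.1 on log2(CPM + 1), other scalings, no filter, a threshold of 0.05, a replicate block, each library left out, and the removal of lists. The tests were tried on simulated counts first. Sequences and positions of mature miRNAs came from RefSeq, and the genes that overlap them from GENCODE vM21. Tables and figures were made in Python 3.11.15 with matplotlib 3.10.9, scipy 1.17.1, numpy 2.4.6 and pandas 2.3.3.

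Depth was 93520 to 891030 reads, and PCR reads without molecular identifiers are not independent molecules. The miRNAs named are all called ones, with values per library for those higher in males and for the 12 lower with the smallest adjusted p and no overlap, members of the lists, and the 10 with the highest mean CPM. Values per library of let-7b-5p, miR-375-3p, miR-34b-3p and further list members were given as list members. The members and lists were chosen with earlier results of these data known.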

Additional observations from a re-analysis of the deposited data

Results flagged for a closer look

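Among 94 groups of 4 libraries checked, 1 library stood away from the other 3 of its group in 16, by Dixon's test at 95%. Chance alone meets this rule in about 1 of 20 groups where values are normal and groups independent. Here the values were CPM and percentages not put on a log scale, and the groups share libraries and miRNAs. The 16 are therefore not to be set against that rate. Female replicate 2 accounted for 6 of them. It was low for miR-2137 (7729 CPM) and high for miR-223-3p (8959), miR-23a-3p (41659), let-7f-5p (58750), miR-30d-5p (55960) and the myeloid list (18.3% of reads). Male replicate 4 accounted for 4. It was high for miR-34c-5p (1344 CPM), miR-34b-3p (6110) and miR-34c-3p (652) and low for miR-223-3p (7960). Female replicate 3 was high for miR-486b-5p (143657 CPM) and for the red-cell list (13.7% of reads). The others were female replicate 1 for miR-224-5p (1624 CPM), female replicate 4 for miR-34c-5p (6847 CPM), male replicate 3 for miR-3470a (382 CPM) and male replicate 2 for the list of muscle, mesenchyme and vessels (1.00% of reads).

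The difference between males and females was itself unlike after FA and O3 for miR-486b-5p, by -5.12 on the log2 scale. Between co-ex and KO after FA it was unlike for 17 miRNAs, given here as co-ex minus KO on the log2 scale with edgeR's adjusted p between 0.0292 and 0.0945. The epithelial members had -6.70 (miR-449a-5p), -4.49 (miR-429-3p), -6.11 (miR-34c-3p) and -5.22 (miR-375-3p). The red-cell members had -4.93 (miR-486b-5p) and -6.15 (miR-451a). The repeat-like members had -6.46 (miR-690) and -7.19 (miR-3473e). The others were miR-6538 (-6.98), miR-1961 (-4.89), miR-148a-3p (-5.54), miR-5098 (-6.47), miR-126a-3p (-9.75), miR-712-5p (-10.26), miR-706 (-9.37), miR-872-3p (-7.53) and let-7e-5p (2.78), which alone was above 0. For miR-712-5p, miR-706 and miR-872-3p all 3 KO females had 0 reads. These fitted values depend on the small count added in the fit and are no measure of size. The KO females were also at or near 0 for miR-3473e (0, 0 and 19.1 CPM) and miR-449a-5p (3.59, 4.83 and 0 CPM). The sizes fitted for this pair are therefore uncertain too. For miR-126a-3p, of blood vessels, 1 library decides the value, KO male replicate 3 with 9010 CPM against 4.77 to 17.7 in the other 5 KO libraries. That library was also far above the other KO males for miR-34c-3p (489 CPM against 42.3 and 22.2) and miR-148a-3p (1251 against 101 and 51.7). The sizes of these differences thus depend in part on it. let-7e-5p had 4471 to 12165 CPM in co-ex females and 7773 to 29510 in co-ex males, but 19339 to 40594 in KO females and 6271 to 11969 in KO males.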

How the results depend on the processing

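For the comparison of co-ex males and females after FA, 33 miRNAs were called, and the count was 55 with DESeq2, 20 at a threshold of 0.05 and 13 with the 3 lists removed. With each library left out it ranged from 11 to 68. The other alternatives gave 23 to 40, of which total-count scaling and no filter gave 23 each, and without the filter the median of the 238 miRNAs moved from 0.09 to 0.44. Higher calls were 12.1% of all calls as reported and 32.7% with DESeq2. For single miRNAs, 608 values under 19 alternatives gave 451 on the same side of the threshold, 157 no longer past it and 0 with the other direction. The replicate number as a block gave 34 calls, 7 higher and 27 lower. The labels do not say that the numbers pair the samples, and they were not treated as pairs in the main test. Same-numbered males and females had correlations of -0.24, 0.33, 0.18 and 0.02 in their deviations, and not every library correlated best with its own number. Deviations from means of 4 libraries cannot decide whether same-numbered samples were handled together.

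For the difference between FA and O3 the 1 call became 0 with limma and 0 with the block, each with 6 at an unadjusted p under 0.05, and 0 to 1 with a library left out. The smallest adjusted p over these alternatives lay between 0.000178 and 0.290. After O3 the 19 calls became 59 with DESeq2, 36 with limma, 10 without the filter, 7 at 0.05, 63 with the block and 0 to 71 with a library left out. In KO the 0 calls became 13 with DESeq2 and stayed 0 with each library left out in edgeR, with 16 to 34 at an unadjusted p under 0.05. For the difference between co-ex and KO the 17 calls became 49 with DESeq2, 8 with total counts, 9 at 0.05, 9 with the block and 6 to 41 with a library left out. Where a count changed, the cause was not tested, apart from the fewer miRNAs or libraries in the test by construction. With 93520 reads in the shallowest library, a miRNA under 32.1 CPM may go unseen there.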

Other observations

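The miRNAs listed in only 1 of the 2 co-ex tables could not be compared and are given as reads. The table of the females alone lists 31, whose reads in the males were not analysed here. Among them, miR-122-5p, the leading miRNA of liver, had 26, 11, 16 and 32 reads in the 4 females after FA. miR-144-3p, of the cluster of miR-451a, had 0, 24, 25 and 2 reads. The table of the males alone lists 75, among them miR-223-5p, the other arm of miR-223, with 21, 55, 0 and 0 reads after FA, and let-7e-3p, with 40, 46, 15 and 7. These miRNAs were picked after their values were seen. Every miRNA listed in a co-ex table has a read in at least 4 of its 8 libraries, and a miRNA not listed in a table may still have been read there.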
